A study of Mus musculus with 96 samples.

Results

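Binding of GATA6 after 4 days of doxycycline (Dox) was compared with its binding after 2 days, over the whole set of 42403 GATA6 binding regions that the study lists, and the change was related to SOX17 binding, DNA motifs and chromatin state. All regions of the deposited table entered the comparison, with no further choice. They are GATA6 peaks that the authors called, so each is listed because GATA6 gave a peak in some of the samples. The shares of gains and losses hold for this list. Mouse embryonic stem (ES) cells of the KH2 line (C57BL/6 x 129/Sv) with a Dox-inducible gata6 expression cassette were given 1 µg/mL Dox for 48 h or 96 h. Both groups carried the cassette, and both grew with serum and LIF on feeder fibroblasts that were adsorbed to plastic before fixation with DSG and PFA. The construct encodes tagged GATA6, an antibody to GATA6 also sees the endogenous protein, and the labels do not say which clone of the line gave which library. The labels list 2 GATA6 libraries at day 2 and 3 at day 4, among 96 libraries of the series.

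GATA6 is a zinc-finger pioneer transcription factor (TF) that binds GATA motifs, also in closed chromatin, and drives ES cells towards primitive endoderm (PrE), the lineage of the parietal and visceral yolk sac. SOX17, an HMG-box TF whose gene is a target of GATA6 in this lineage, binds ATTGT motifs and maintains endoderm gene expression. OCT4, SOX2 and ESRRB are pluripotency TFs (PTFs), which occupy the enhancers of undifferentiated ES cells.

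The sequences below show what GATA6 and SOX17 meet at regions that changed in opposite directions. They hold the best-scoring GATA6 and SOX17 motif matches of 8 regions with 10 bases on either side, read on the plus strand of mm10. They were picked among the 49 candidate regions near the genes named below, of which 9 had both matches within 150 bases, and 4 were kept per direction. Capitals mark the motif matches, of 13 bases for GATA6 and 9 bases for SOX17. The first 4 sequences lie in regions with more GATA6 at day 4. They are chr3:90163198-90163257 in an intron of Nup210l, chr2:148392155-148392227 between genes near Thbd, chr9:46241948-46242072 in an intron of Apoa4 near Apoa1, and chr8:43280728-43280788 between genes near Zfp42. The last 4 lie in regions with less. They are chr8:25371392-25371531 between genes near Tacc1, chr4:82886198-82886252 upstream of Cer1, chr12:86403815-86403865 in an intron of Esrrb, and chr11:100196194-100196240 between genes near Krt19.
Nup210l: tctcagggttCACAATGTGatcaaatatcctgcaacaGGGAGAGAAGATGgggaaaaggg
Thbd: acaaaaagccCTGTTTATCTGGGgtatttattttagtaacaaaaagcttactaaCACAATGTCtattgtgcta
Apoa1: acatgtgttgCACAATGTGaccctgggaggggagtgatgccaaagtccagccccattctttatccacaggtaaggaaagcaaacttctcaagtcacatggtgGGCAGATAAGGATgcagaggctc
Zfp42: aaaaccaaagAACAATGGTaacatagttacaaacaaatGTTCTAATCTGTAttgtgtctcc
Tacc1: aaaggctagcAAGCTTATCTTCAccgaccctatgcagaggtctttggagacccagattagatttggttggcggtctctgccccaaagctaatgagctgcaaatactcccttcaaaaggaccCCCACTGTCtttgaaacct
Cer1: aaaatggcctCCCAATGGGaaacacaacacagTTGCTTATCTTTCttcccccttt
Esrrb: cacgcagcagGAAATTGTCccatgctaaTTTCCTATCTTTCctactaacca
Krt19: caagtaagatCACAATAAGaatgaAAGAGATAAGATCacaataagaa
In the 4 regions that gained GATA6, each SOX17 match held CATTGT on one of its strands, and in the 4 that lost it none did. The GATA6 matches did not divide this way, since AGATAAG occurred at Apoa1 and at Tacc1, Cer1 and Krt19. These are 8 picked regions, and the shares over all regions are given further on.

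Each deposited value is in RPM, the reads on a region divided by the depth of the library in M (mega) reads, averaged over the libraries of a condition. The values of GATA6 at both days fitted the mean of 2 libraries whose whole read counts, with 1 read added, were each divided by the library's depth. This split all 42403 regions uniquely into the values of 2 libraries per day, called A for the deeper and B for the shallower. At day 2 the depths were 20.4 and 18.9 M reads, and at day 4 they were 18.0 and 11.8 M reads, so that a day 4 library may combine some of the 3 labelled ones. The median region held 22 and 20 reads at day 2 and 20 and 15 reads at day 4. Of all reads, 8.78% and 8.23% fell on the regions at day 2 and 9.77% and 11.01% at day 4, against 2.06% to 2.30% for input chromatin. The Spearman correlation between the libraries of a day was 0.921 at day 2 and 0.913 at day 4. Per the study's methods, most conditions had replicate chromatin that was prepared independently, but the labels tie no preparation to library A or B. The p-values below measure the spread between these recovered libraries, part of which may be technical.

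The day 4 libraries stood apart from each other at regions that lost GATA6. Library B had more signal than library A in 85.6% of the regions called lower below, in 48.3% of those called higher and in 65.7% of all regions. At the regions called lower, the median was 2.26 and 2.22 RPM in the day 2 libraries, 0.665 RPM in library A of day 4 and 1.10 RPM in library B. At regions bound by PTFs before Dox, the day 4 medians were 1.05 RPM in A and 1.61 RPM in B, against 1.82 and 2.17 RPM at day 2. The SOX17 libraries of day 4 differed less at the regions called lower, with medians of 0.647 and 0.633 RPM. Both day 4 libraries therefore lay below both day 2 libraries in these medians, by different amounts. What set the day 4 libraries apart was not tested.

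**Figure D1:**
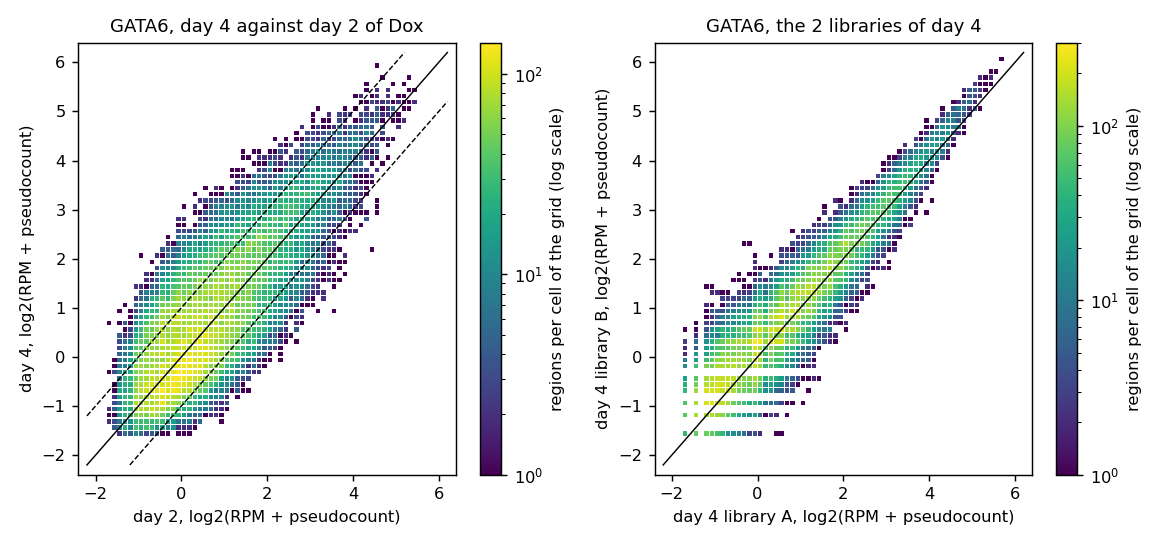
GATA6 signal per region as log2(RPM + 0.259), day 4 against day 2 on the left and the 2 libraries of day 4 against each other on the right, with the number of regions in each cell of the grid in color. The solid line marks equal values and the dashed lines a 2-fold change. The cloud on the left reaches farther above the line of equality than below it, and on the right it bends above the line at low values, where library B held more signal than library A.

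GATA6 binding was redistributed between the 2 days, with more regions gaining than losing signal. The median over all regions was 1.13 RPM at day 2 and 1.29 RPM at day 4. Changes were taken per region as the difference of log2(RPM + 0.259), where 0.259 RPM, the 5th percentile of the values, was added to steady low values and understates their change. The median change was 0.12, with 0.02 to 0.24 in the 4 pairings of a day 4 with a day 2 library, and its quartiles over regions were -0.43 and 0.73. Changes of groups of regions are best read against this median of 0.12.

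In the limma test on the 4 libraries, with Benjamini-Hochberg adjustment over all regions, 10086 regions were higher at day 4 (23.8% of regions) and 4959 were lower (11.7%) at an adjusted p under 0.05. These regions are called higher and lower from here on. At an unadjusted p under 0.05 the counts were 12283 and 6892. When changes were centred on the median of all regions, 8394 were higher and 6370 lower, and with the libraries quantile-normalised 7816 and 7213, so that the excess of gains depended on the scaling. Without library A of day 4, the test called 9789 higher and 3073 lower. Without library B of day 4, it called 9650 higher and 7579 lower. Leaving out library A of day 2 gave 6390 and 2290, and leaving out library B of day 2 gave 5605 and 2207. In the deposited values, with no test, 6875 regions were at least 2-fold higher (16.2%) and 2999 at least 2-fold lower (7.07%), of which 6867 and 2986 also passed the limma test. These counts rested on the pseudocount, since one 10 times larger gave 900 and 115. The losses rested on the day 4 libraries too, with 1934 without library A and 5765 without library B. Both day 4 libraries exceeded both day 2 libraries in 17409 regions (41.1%) and lay below both in 11623 (27.4%).

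Calls were more frequent at regions with more signal. In the fifth of regions with the least GATA6 over both days, at up to 0.739 RPM on the higher day, 2.68% were called higher and 3.04% lower, against 44.5% and 13.8% in the fifth with the most. Among the weakest regions few changes could be detected at this depth. Input chromatin gave no call in the same test, with 3068 regions (7.24%) at an unadjusted p under 0.05. It still moved with the result. Median input went from 0.420 to 0.566 RPM at regions called higher and from 0.546 to 0.509 RPM at regions called lower, and the Spearman correlation of the GATA6 and input changes over the 42403 regions was 0.351. With the input RPM of the same day subtracted, 9290 regions were at least 2-fold higher and 6675 at least 2-fold lower. The GATA6 signal itself went from 1.04 to 2.98 RPM and from 2.24 to 0.870 RPM at these regions, a description since it chose them.

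The 8 regions with the largest gain were nearly empty at day 2. They were taken among the 3641 called regions with at least 5 RPM on the higher day and libraries that did not overlap between days, of which 2821 were higher and 820 lower. The region with the largest gain, chr4:108447822-108448679, lies between genes with its nearest gene start at Tut4, which encodes an enzyme that adds uridines to RNA. It held 1.08 and 0.847 RPM in the day 2 libraries and 10.6 and 8.23 RPM in the day 4 libraries, a log2 change of 2.98 (SE 0.27, limma adjusted p = 5.20e-08). An intron of Pde6c held 0.737 and 0.899 RPM at day 2 and 8.37 and 7.30 RPM at day 4, at chr19:38161658-38162396. Its log2 change was 2.91 (SE 0.27, limma adjusted p = 5.84e-08), and it also lies within 50 kb of the start of Rbp4, the retinol carrier that visceral endoderm secretes. That the libraries of the days stood apart in these regions follows from how they were chosen.

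The Nup210l region whose sites are printed above, chr3:90162806-90163331, held 0.393 and 0.635 RPM at day 2 and 4.93 and 5.09 RPM at day 4. That is a log2 change of 2.79 (SE 0.30, limma adjusted p = 2.63e-07). The others were an intron of Palld, an intron of Csgalnact1 and regions between genes nearest to Nrp1, Msl3 and Efnb2, with log2 changes from 2.75 to 2.80. All 8 were closed in undifferentiated ES cells, had no PTF peak, were called SOX17-bound by the authors and passed the limma test for higher SOX17 as well. Of all regions 61.3% were closed, 62.6% had no PTF peak and 44.5% were SOX17-bound. Among those called higher, these shares were 79.2%, 76.0% and 77.2%. At Nup210l the SOX17 signal went from 0.513 to 3.89 RPM, and near Tut4 from 0.908 to 7.93 RPM. OCT4 was also higher there at day 4, at 1.04 RPM against 0.391 RPM at day 2 at Nup210l, and 5.16 against 0.519 RPM in the Csgalnact1 intron. In XEN cells, stem cells of the extra-embryonic endoderm, GATA6 held 4.95 RPM at Nup210l and 21.6 RPM near Tut4.

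The 8 regions with the largest loss were all bound by PTFs before Dox, as were 20.8% of all regions and 46.4% of those called lower. The authors called all 8 SOX17-bound, as they did the 8 with the largest gain, and 5 of the 8 losses were closed. An intron of Cdh23, a gene for a cadherin, held 11.9 and 10.4 RPM at day 2 and 0.776 and 2.55 RPM at day 4, at chr10:60471270-60472470. The log2 change was -2.74 (SE 0.31, limma adjusted p = 4.41e-07). An intron of Esrrb, the gene of the PTF itself, held 11.9 and 10.8 RPM at day 2 but 0.610 RPM in library A and 4.84 RPM in library B of day 4, at chr12:86470210-86471784. The libraries of the days did not overlap, as the choice required (log2 change -2.46, SE 0.41, limma adjusted p = 4.96e-05), though those of day 4 were far apart.

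An intron of Cpn1, the gene of a plasma carboxypeptidase subunit, had the most signal of the 8 at day 2, with 22.9 and 19.2 RPM, and kept 2.83 and 5.69 RPM at day 4, at chr19:43981525-43982765. The Tacc1 region of the printed sequence, chr8:25370868-25371794, fell from 6.78 and 5.71 RPM to 0.610 and 1.78 RPM, by a log2 change of -2.28 (SE 0.31, limma adjusted p = 4.07e-06). The others were introns of Ncam2 and Il23r and regions between genes nearest to Trib2 and Mmadhc, with log2 changes from -2.54 to -2.30. In all 8 the SOX17 signal was lower as well by the limma test. OCT4 fell too in the deposited values, from 18.0 to 2.37 RPM in the Esrrb intron and from 31.2 to 7.75 RPM in the Cpn1 intron, with no test.

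**Figure D2:**
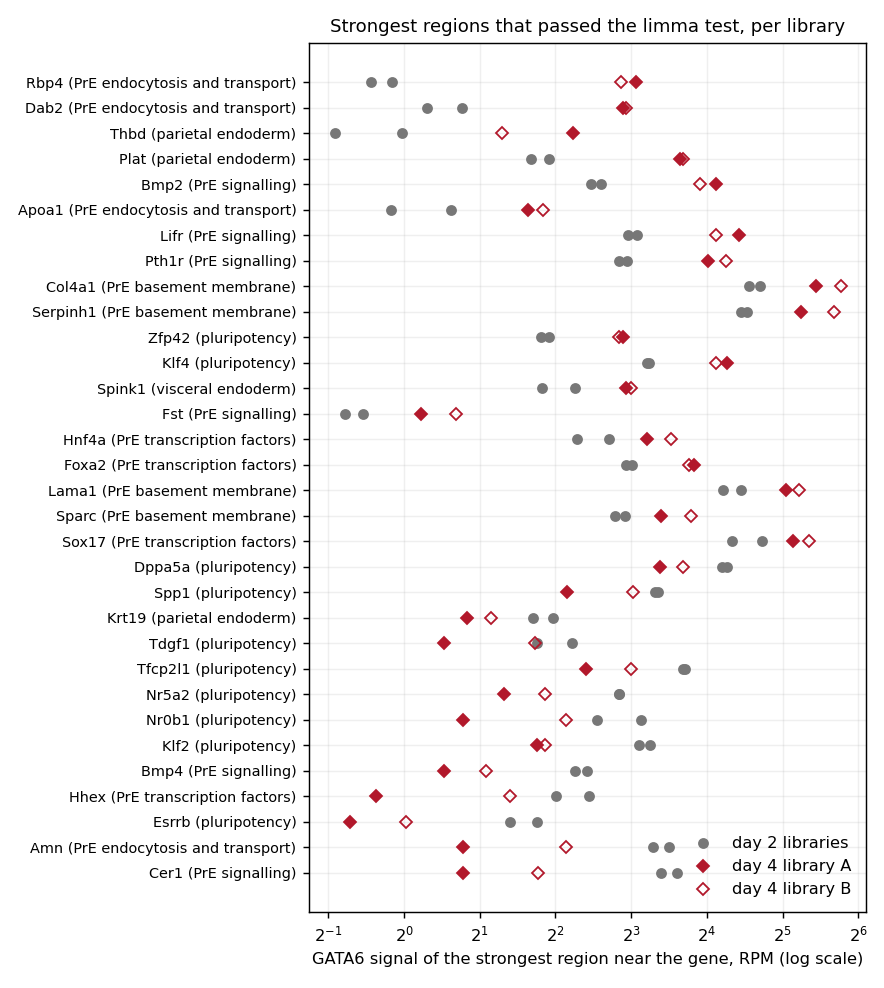
GATA6 signal in RPM on a log scale for the strongest region within 50 kb of each listed gene, for the 32 of these regions that passed the limma test (19 higher and 13 lower), with 1 point per library. Gray circles are the day 2 libraries, and filled and open diamonds are libraries A and B of day 4. At the regions with the largest losses, at the bottom, the open diamond lies to the right of the filled one.

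Regions near genes of the PrE program gained GATA6 more often than regions at large. A region was given to a gene when it lay within 50 kb of its start, and the strongest region was described for each gene. Near the 11 PrE TFs lay 97 regions, of which 35.1% were called higher and 7.22% lower, with a median change of 0.47 (0.31 to 0.56 over the library pairings). The shares over all regions were 23.8% and 11.7%. Across the PrE lists, from 55.1% (signalling) to 74.2% (these TFs) of regions were SOX17-bound, against 44.5% of all regions. Of all SOX17-bound regions 41.3% were called higher, so the gains near these genes may go with SOX17 binding, which was not tested. The strongest region near Sox17 held 26.6 and 20.1 RPM at day 2 and 35.1 and 40.6 RPM at day 4, a log2 change of 0.70 (SE 0.21, limma adjusted p = 0.0101). The strongest region near Foxa2, an endoderm pioneer TF, held 8.06 and 7.62 RPM and then 14.2 and 13.6 RPM (log2 change 0.81, limma adjusted p = 0.00513). The promoter of Hnf4a, a regulator of visceral endoderm, held 6.53 and 4.87 RPM at day 2 and 9.26 and 11.5 RPM at day 4 (log2 change 0.84, limma adjusted p = 0.00640).

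Not all strongest regions of these TF genes passed the test. At the Gata6 promoter the libraries held 11.1 and 9.84 RPM and then 12.7 and 16.0 RPM (log2 change 0.44, limma adjusted p = 0.120). Within Gata4 the log2 change was 0.40 (limma adjusted p = 0.142). The strongest region near Hhex, a homeobox gene of anterior endoderm, fell from 5.45 and 4.02 RPM to 0.776 and 2.63 RPM (log2 change -1.52, limma adjusted p = 0.000914). It lies in an exon of the gene and was bound by PTFs before Dox.

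Basement membrane genes are active in parietal endoderm, which lays down Reichert's membrane. Of the 112 regions near 13 of them, 31.3% were higher and 1.79% lower. The strongest region, in an intron of Col4a1 (a collagen IV chain, whose gene starts beside that of Col4a2), held 26.0 and 23.4 RPM at day 2 and 43.6 and 54.7 RPM at day 4, a log2 change of 0.98 (SE 0.20, limma adjusted p = 0.000559). The promoter of Serpinh1, a collagen chaperone, went from 23.0 and 22.0 RPM to 37.8 and 51.1 RPM (log2 change 0.96, limma adjusted p = 0.000780). Near Lama1, a laminin chain, the values were 21.9 and 18.5 RPM and then 32.9 and 37.0 RPM (log2 change 0.79, limma adjusted p = 0.00398). At these 3 regions the libraries of day 4 lay above those of day 2, with a change under 2-fold. Not all strongest regions of the list moved this way. Those near P4ha2 (log2 change -0.57, limma adjusted p = 0.0743), Hspg2 (log2 change -0.36, limma adjusted p = 0.171) and the laminin chain gene Lamc1 (log2 change -0.17, limma adjusted p = 0.526) had both day 4 libraries below both day 2 libraries without passing the test. Near the laminin chain gene Lamb1 the log2 change was -0.27 (limma adjusted p = 0.329) and the libraries overlapped.

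The share of gains was largest near parietal endoderm genes among the lists, with 52.9% of 68 regions higher and 5.88% lower, and a median change of 0.73 (0.67 to 0.76). An intron of Plat, tissue plasminogen activator, went from 3.19 and 3.76 RPM to 12.5 and 12.8 RPM (log2 change 1.79, SE 0.23, limma adjusted p = 1.98e-06). The Thbd region of the printed sequence, near the gene of thrombomodulin, went from 0.983 and 0.529 RPM to 4.71 and 2.46 RPM (log2 change 1.89, SE 0.33, limma adjusted p = 7.79e-05). Against this direction, the strongest region near Krt19, a keratin, fell from 3.24 and 3.92 RPM to 1.77 and 2.21 RPM (log2 change -0.77, SE 0.27, limma adjusted p = 0.0276). The list shares Sparc, Lama1, Col4a1 and Nid1 with the basement membrane list.

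Genes of endocytosis and transport had 46.7% of 75 regions higher and 6.67% lower. The single region near Dab2, an endocytic adaptor needed in visceral endoderm, went from 1.23 and 1.69 RPM to 7.43 and 7.64 RPM (log2 change 2.19, SE 0.26, limma adjusted p = 7.33e-07). The single region near Amn, the partner of cubilin in that tissue, went the other way, from 11.4 and 9.74 RPM to 1.72 and 4.41 RPM (log2 change -1.83, SE 0.29, limma adjusted p = 2.44e-05). Visceral endoderm genes had 37.5% of 56 regions higher and 10.7% lower. Among signalling genes 31.9% of 69 regions were higher and 10.1% lower. Bmp2 had its strongest region at 6.04 and 5.56 RPM and then 17.4 and 15.0 RPM (log2 change 1.44, SE 0.22). The strongest region near Bmp4, whose gene encodes a related ligand, fell from 4.77 and 5.34 RPM to 1.44 and 2.12 RPM (log2 change -1.40, SE 0.27). At Cer1, an antagonist of Nodal secreted by anterior visceral endoderm, the region of the printed sequence fell from 12.1 and 10.5 RPM to 1.72 and 3.40 RPM (log2 change -2.10, SE 0.27, limma adjusted p = 1.45e-06).

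Pluripotency genes showed the opposite balance, with 6.21% of 145 nearby regions higher and 22.1% lower, and a median change of -0.31 (-0.55 to -0.09). Of these regions 41.4% were bound by PTFs before Dox, against 20.8% of all regions. The strongest region near Klf2, a Kruppel-like TF of naive pluripotency, fell from 9.48 and 8.57 RPM to 3.38 and 3.65 RPM (log2 change -1.30, SE 0.24, limma adjusted p = 0.000130). Near Nr5a2, a nuclear receptor, the values fell from 7.17 and 7.14 RPM to 2.49 and 3.65 RPM (log2 change -1.18, SE 0.25). Within Tfcp2l1, another TF of the network, the values fell from 13.1 and 12.8 RPM to 5.27 and 7.98 RPM (log2 change -0.97, SE 0.23).

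Not all strongest regions near pluripotency genes passed the test. Those near Pou5f1 (log2 change 0.01, limma adjusted p = 0.972), Nanog (log2 change -0.03, limma adjusted p = 0.935) and Sox2 (log2 change -0.56, limma adjusted p = 0.137) did not. Others not called went both ways, such as Prdm14 (log2 change 0.49, limma adjusted p = 0.142) and Klf5 (log2 change -0.49, limma adjusted p = 0.0963). The strongest regions near Klf4 and Zfp42, also known as Rex1, were called higher. Near Klf4 the signal rose from 9.24 and 9.42 RPM to 19.2 and 17.4 RPM (log2 change 0.95, SE 0.21, limma adjusted p = 0.00113). Near Zfp42 it rose from 3.78 and 3.49 RPM to 7.43 and 7.13 RPM (log2 change 0.95, SE 0.24, limma adjusted p = 0.00281). Both regions had ectopic PTF binding. Neural genes, taken as a list of another lineage, had 16 regions near 8 of 12 genes, with 12.5% higher, 6.25% lower and a median change of -0.06. The members of these lists lie near genes, and no expression was measured in these values.

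The gains of GATA6 lay mostly at SOX17-bound regions. The authors called 18861 regions SOX17-bound (44.5%) from SOX17 peaks. Their median GATA6 signal went from 2.07 to 2.88 RPM, a median log2 change of 0.52 (0.41 to 0.60 over the 4 library pairings), with 41.3% called higher and 11.6% lower. At the 23542 regions without SOX17 it went from 0.780 to 0.716 RPM, a median change of -0.11 (-0.21 to 0.02), with 9.78% higher and 11.8% lower. The 2 classes thus had similar shares of losses and differed in gains. Of all regions called higher, 77.2% were SOX17-bound, and of those called lower 44.1%. The difference of the median changes was 0.63, between 0.49 and 0.72 over the library pairings. The SOX17 peaks behind the class may include those of day 4, so it does not show SOX17 binding before the gains. The SOX17 signal at day 1 had a Spearman correlation of -0.197 with the GATA6 change over 42403 regions (-0.233 to -0.130 over the library pairings).

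The changes of GATA6 and SOX17 themselves had a Spearman correlation of 0.861 over the 42403 regions. Regions are not replicates, and the changes share base composition, width and possibly the cultures, but no library. With single libraries on both sides it ran from 0.691 to 0.796 in the 16 combinations. It was 0.917 at SOX17-bound and 0.729 at unbound regions. In 10 groups of equal size by the SOX17 change (deciles), the median GATA6 change went from -0.96 in the lowest decile, where 63.3% of regions were called lower, to 1.45 in the highest, where 93.2% were called higher. Each decile in between had a higher median than the one before it.

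SOX17 tested in the same way gave 8453 regions higher (19.9% of 42375) and 4873 lower (11.5%). The 28 regions left out had SOX17 values at day 4 that could be split in several ways. GATA6 and SOX17 were both higher in 6801 regions, which are 67.4% of the GATA6 and 80.5% of the SOX17 gains. Both were lower in 2842 regions, or 57.3% of the GATA6 and 58.3% of the SOX17 losses. Opposite calls occurred at 1 region, named here because of its values. It lies in an exon of Nr5a2 at chr1:136940442-136941033, where GATA6 went from 0.639 and 1.38 RPM to 3.44 and 3.23 RPM and SOX17 from 2.20 and 2.37 RPM to 0.529 and 1.34 RPM. Where GATA6 was higher and SOX17 was not called (3270 regions), SOX17 had a median change of 0.66, so most of these had more SOX17 too. In a limma test of the GATA6 change against the SOX17 change, no region passed an adjusted p under 0.05 (0.00% of 42375). At an unadjusted p under 0.05, 1576 passed (3.72%), and the median difference was -0.02. With 2 libraries per group that test found no region where the factors parted.

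**Figure D3:**
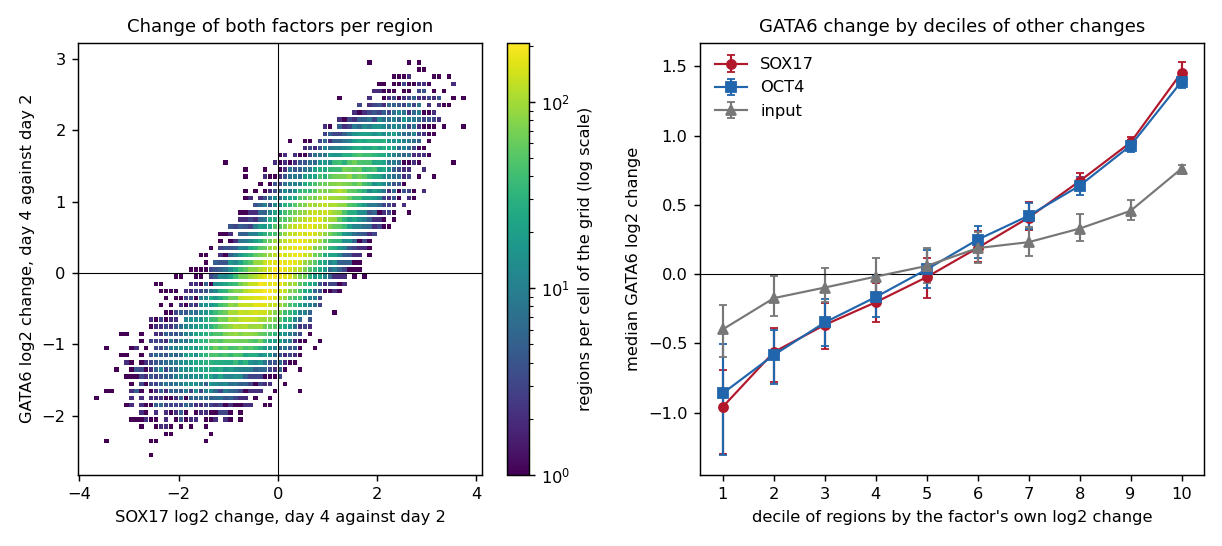
On the left, the log2 change from day 2 to day 4 of GATA6 against that of SOX17 per region, with the number of regions in color. On the right, the median GATA6 change in deciles of regions ordered by the change of SOX17, OCT4 or input, with bars over the 4 library pairings of GATA6. The lines of SOX17 (-0.96 to 1.45) and OCT4 (-0.86 to 1.39) run close together, while that of input spans -0.40 to 0.76.

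The signals of OCT4 and SOX2 moved with that of GATA6 nearly as closely as the SOX17 signal did. The Spearman correlation of the GATA6 change with that of OCT4 was 0.814 and with that of SOX2 0.820, against 0.421 for ESRRB and 0.351 for input, each over 42403 regions. At regions called higher, median OCT4 was 0.438 RPM before Dox, 0.675 RPM at day 2 and 1.31 RPM at day 4, and SOX2 went from 0.491 through 0.674 to 1.84 RPM. At regions called lower, OCT4 went from 1.62 RPM before Dox through 2.12 RPM to 0.712 RPM, and SOX2 from 1.86 through 1.68 to 0.585 RPM. ESRRB had medians of 0.434 and 0.494 RPM at the former, and went from 0.745 to 0.446 RPM at the latter between day 2 and day 4. These 3 factors are given as values, without a test. The paper reports that their expression goes down during induction. Input rose from 0.420 to 0.566 RPM at regions called higher, and whether part of the rise is shared by all antibodies was not tested.

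Losses of GATA6 were more frequent at regions bound by PTFs before Dox than in the other PTF classes. The authors' PTF classes hold 8841 regions with a PTF peak before Dox, 7038 regions of ectopic PTF binding, which appeared during differentiation, and 26524 with none. The median GATA6 change was -0.40 at the first (-0.71 to -0.10 over the library pairings), 0.19 at the second (0.00 to 0.37) and 0.32 at the last (0.24 to 0.40). Losses were called at 26.0%, 15.0% and 6.04% of the classes and gains at 5.58%, 27.3% and 28.9%. Of all losses, 46.4% lay in the class bound before Dox, which holds 20.8% of regions.

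SOX17 and the PTFs together separated the changes further. SOX17-bound regions without PTFs (8895 regions) went from 1.09 to 2.30 RPM, with a median change of 0.98 (0.92 to 1.02), 61.2% called higher and 2.68% lower. Those with ectopic PTFs had a median change of 0.35 (0.18 to 0.52). SOX17-bound regions that PTFs held before Dox went from 4.09 to 3.18 RPM, a median change of -0.28 (-0.46 to -0.07), with 10.6% higher and 29.96% lower. Without SOX17, regions with no PTF had a median change of 0.04 (-0.06 to 0.15), those with ectopic PTFs -0.46 (-0.74 to -0.22) and those bound before Dox -0.49 (-0.87 to -0.12). In every PTF class the SOX17-bound regions had the higher median. These classes come from peak calls, and a region with more signal is more easily called bound.

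**Figure D4:**
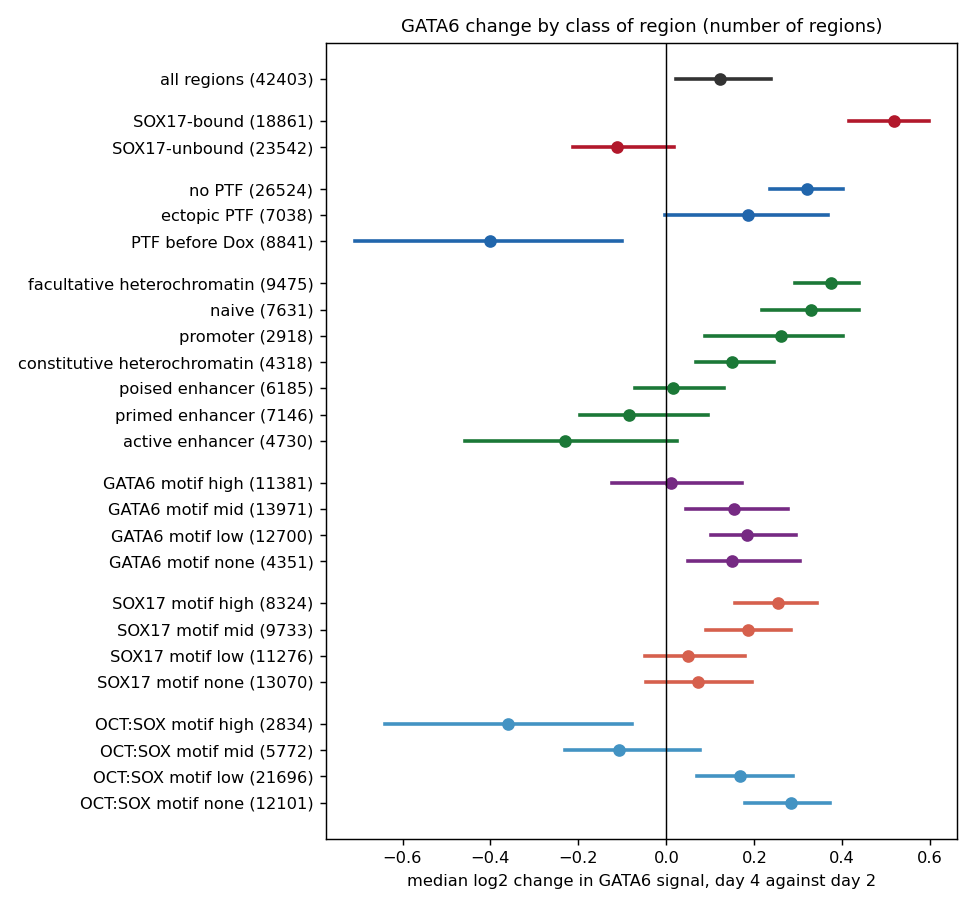
Median log2 change in GATA6 signal from day 2 to day 4 by class of region, with the number of regions in brackets. Points are medians of the deposited values and lines run over the 4 pairings of a day 4 with a day 2 library. SOX17-bound regions lie at 0.52, regions bound by PTFs before Dox at -0.40, active enhancers at -0.23 and facultative heterochromatin at 0.37, while the 4 GATA6 motif classes lie between 0.01 and 0.18.

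Chromatin states, which the authors gave each region from histone marks of undifferentiated ES cells, had the highest median change at facultative heterochromatin and the lowest at active enhancers. Facultative heterochromatin, silenced by Polycomb and able to reopen, had a median change of 0.37 (0.29 to 0.44), with 31.5% of 9475 regions higher and 8.73% lower. Regions of the class named naive, whose meaning the sources used here do not give, had 0.33 (0.22 to 0.44), with 33.3% higher and 10.3% lower. Promoters had 0.26 (0.09 to 0.40), constitutive heterochromatin 0.15 (0.07 to 0.25), poised enhancers 0.02 (-0.07 to 0.13) and primed enhancers -0.08 (-0.20 to 0.09). Active enhancers were lowest with -0.23 (-0.46 to 0.02), with 10.1% of 4730 regions higher and 18.5% lower. The ranges of neighbouring states in this order overlap, while those of facultative heterochromatin and active enhancers do not. Closed regions of undifferentiated cells had a median change of 0.31, and moderately accessible and accessible ones each -0.12.

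The order of the states differed between the PTF classes. PTF binding before Dox covered 2749 of the 4730 active enhancers and 404 of the 9475 regions of facultative heterochromatin. Among regions that PTFs held before Dox, the median change was -0.39 at active enhancers, -0.41 at facultative heterochromatin and -0.44 at naive regions, and promoters stood apart at -0.08. Among regions without PTFs, the medians were 0.02 at active enhancers, 0.47 at facultative heterochromatin and 0.53 at naive regions. With ectopic PTFs they were 0.16, 0.09 and 0.23, within a range from 0.05 at poised enhancers to 0.42 at promoters. Facultative heterochromatin exceeded active enhancers by 0.60 over all regions and by 0.12 as a mean over the 3 PTF classes, and naive regions did so by 0.56 and 0.18. Within SOX17-bound regions, the medians were 0.79 at facultative heterochromatin, 0.73 at naive regions and -0.05 at active enhancers. In all 7 states SOX17-bound regions had the higher median, by 0.17 at promoters and 0.83 at naive regions.

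The strength of the GATA6 motif did not go with gains. The authors' classes put the best match of a region at high (score from 12), mid (from 9) or low, or found none. Regions with a high GATA6 motif had a median change of 0.01 (-0.12 to 0.17), mid 0.15, low 0.18 and none 0.15. The median for high minus that for none was -0.14 (-0.22 to -0.02 over the library pairings). High motifs carried more signal at both days, with medians of 1.33 and 1.39 RPM against 0.816 and 0.964 RPM where no motif was found. The Spearman correlation of the score with the change was -0.078 over 38052 regions. By the letters of the best match, on either strand, AGATAAG was found in 37.8% of all GATA6 matches, 33.6% of those in regions called higher and 41.5% of those in regions called lower.

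The SOX17 motif went with gains to a small extent. High SOX17 motifs had a median change of 0.25 (0.16 to 0.34), mid 0.19, low 0.05 and none 0.07. Within SOX17-bound regions the classes lay close together, with 0.55, 0.54, 0.45 and 0.52. Of the best SOX17 matches in 29333 regions, 47.0% held CATTGT on either strand, the letters of the Nup210l, Thbd, Apoa1 and Zfp42 sites above. The share was 55.3% in regions called higher and 43.5% in regions called lower. The spacing of the sites went in the same direction. Regions whose best GATA6 and SOX17 matches lay over 10 and up to 25 bases apart had a median change of 0.32 (0.24 to 0.41), and those over 200 bases apart 0.04 (-0.08 to 0.18). The latter are wider, with a median width of 843 against 479 bases.

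High-scoring PTF motifs went with losses. The composite OCT:SOX motif, bound jointly by OCT4 and SOX2, had a median change of -0.36 (-0.64 to -0.08) where high and 0.28 (0.18 to 0.37) where none was found, a contrast about as large as that between SOX17-bound and unbound regions. The mid OCT:SOX class had -0.11 (-0.23 to 0.08), and the low class, which holds 51.2% of regions, 0.17 (0.07 to 0.29). High ESRRB motifs had -0.25 (-0.41 to -0.04), mid 0.03, low 0.09, and regions without one 0.20. Of the regions called lower, 12.5% had a high OCT:SOX motif, against 2.30% of those called higher.

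Over the rest of the time course, the called regions had parted well before day 2. At regions called lower the median GATA6 signal was 0.490 RPM before Dox, 3.85 RPM after 8 h, 3.54 RPM after 16 h and 2.85 RPM after 1 day, and 0.566 RPM in XEN cells. At regions called higher it was 0.490 RPM before Dox, 0.602 RPM after 8 h, 0.816 RPM after 16 h and 0.953 RPM after 1 day, and 3.53 RPM in XEN cells. The losses thus fell at each time from 8 h, and their XEN level was near that before Dox. The fall was not particular to them. At regions not called the median was 1.68 RPM after 8 h, 1.51 RPM after 16 h and 1.23 RPM after 1 day. It was 1.01 RPM at day 2 and 0.982 RPM at day 4 there, and 1.08 RPM in XEN cells. The value before Dox comes from 1 library, and its median was 0.490 RPM at regions not called too. SOX17 at regions called higher had a median of 0.815 RPM at day 1, which went to 0.987 RPM by day 2 and 3.04 RPM by day 4, and it was 2.38 RPM in XEN cells. At regions called lower these medians were 1.85, 1.81, 0.634 and 0.453 RPM. The Spearman correlation of the change with the GATA6 signal was -0.500 at 8 h and 0.577 in XEN cells, over 42403 regions and with libraries that entered neither day. These regions were listed as GATA6 peaks of the series, which may shape both correlations.

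**Figure D5:**
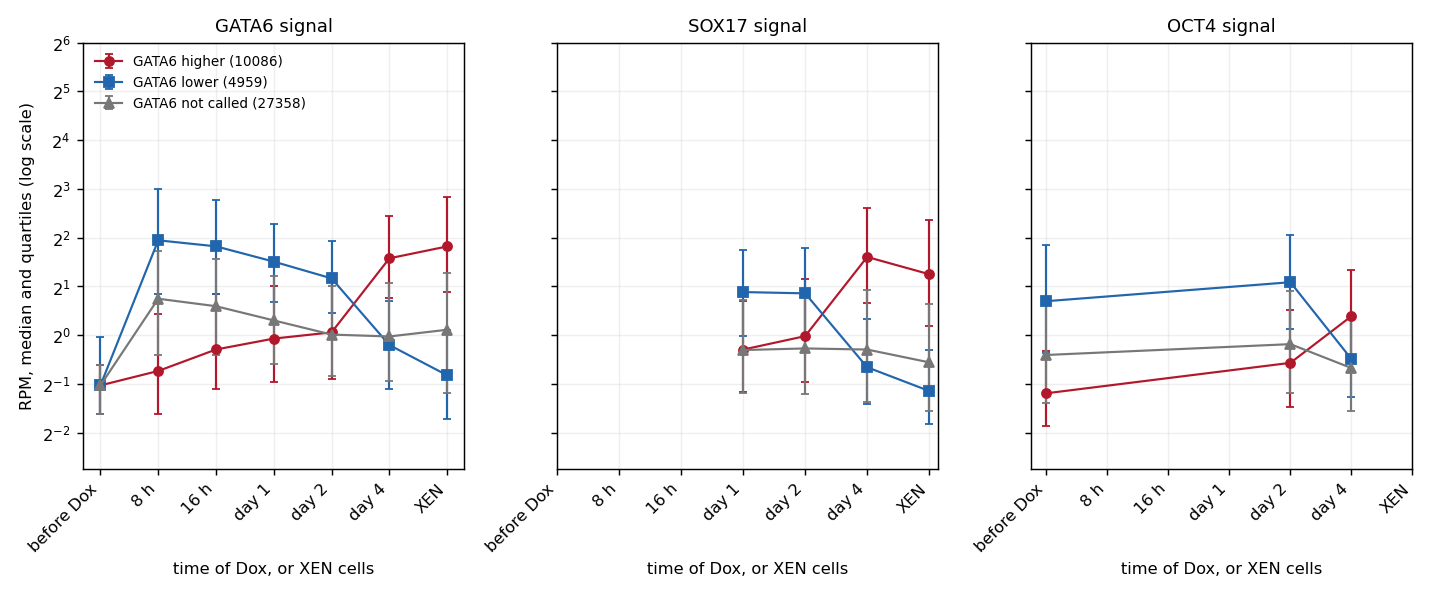
Median signal in RPM on a log scale, with bars from the lower to the upper quartile over regions, of GATA6, SOX17 and OCT4 at regions called higher (10086), lower (4959) or not called (27358) between day 2 and day 4. The calls used the GATA6 values of day 2 and day 4, so the crossing of the GATA6 lines there follows from the choice. At 8 h the lower regions have a GATA6 median of 3.85 and the higher regions of 0.602 RPM, and in XEN cells the order is reversed.

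The authors' groups of GATA6 dynamics were made from these values with the other times, so they are a description only. Late regions had a median change of 0.84, Early&Constant regions 0.12 and Transient regions -0.38. Of regions called higher 72.9% were Late and 24.4% Early&Constant, and of those called lower 65.1% were Transient and 32.4% Early&Constant. A part of the Early&Constant group therefore moved between the 2 days, with 20.7% of its 11875 regions called higher and 13.5% lower.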

How the data were processed

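GATA6, SOX17 and input ChIP-seq values were taken from 1 table of 42403 regions. Per the labels and the study's methods, the authors trimmed reads with cutadapt, aligned them to mm10 with bowtie2, filtered on mapping quality, removed duplicates by UMIs and counted reads on GATA6 peaks (MACS2, called on merged replicates and kept if found in each) with bamsignals. The deposited values are RPM, averaged per condition. The deposited motif values are FIMO scores of the best match, and the deposited class columns hold the authors' peak, chromatin and GATA6 groups. 14 columns of values from other samples were not used.

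Each RPM value was split into whole reads of 2 libraries, with 1 read added to each. limma 3.58.1 with a mean trend (R 4.3.3) tested log2(RPM + 0.259), day 4 minus day 2, with 2 residual degrees of freedom and Benjamini-Hochberg adjustment, called at 0.05. This took the place of a count test, and both steps were checked on simulated data. Medians, Spearman correlations and classes over regions carry no test, as regions are not replicates, and library pairings show their spread. Intervals and tests cover these libraries only. Genes came from GENCODE M21 and sequences from RefSeq GRCm38.p6, the assembly that mm10 names. A region counted as a promoter within 1 kb of a gene start.

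The gene lists, with genes within 50 kb, and the 8 regions per direction with the largest change past adjusted p 0.05, 5 RPM and separate libraries were fixed in advance, but the comparison and the lists were chosen with earlier results of these data known. Alternatives were pseudocounts 10 times larger and smaller, a filter at 1 RPM, input subtraction, centring, quantile normalisation, limma voom on the recovered reads, means, strata of 10 deciles of signal or width, and each library left out. Differences within the 3 PTF classes were added after seeing the data. Values were computed in Python 3.11.15 (scipy 1.17.1, pandas 2.3.3, numpy 2.4.6) and drawn with matplotlib 3.10.9.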

Additional observations from a re-analysis of the deposited data

How the results depend on the processing

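Of 114 alternative values, 80 stayed within the spread between library pairings or within 1.5 times the count, and none reversed. Of those that moved, a pseudocount 10 times larger gave 900 regions at least 2-fold higher and 115 lower, a SOX17-bound minus unbound difference of 0.29, a SOX17 motif difference (high minus none) of 0.079 and 0.20 and 0.21 for facultative heterochromatin and naive regions over active enhancers. With a pseudocount 10 times smaller, 5279 regions were 2-fold lower and the SOX17 difference was 0.72. Keeping regions with at least 1 RPM gave a GATA6 to SOX17 correlation of 0.905, motif differences of -0.26 for GATA6 and 0.10 for SOX17 and 0.86 for facultative heterochromatin. Subtracting input gave 6675 regions 2-fold lower, a SOX17 difference of 0.80 and a SOX17 motif difference of 0.26. The SOX17 difference was 0.51 with means and 0.75 within deciles of width. The SOX17 motif difference was 0.057 within deciles of GATA6 signal, 0.26 within deciles of width and 0.28 within PTF classes, where facultative heterochromatin and naive regions exceeded active enhancers by 0.12 and 0.18. The causes of these moves were not tested. limma voom called 10349 higher and 5631 lower, of which 9969 and 4793 were called in the test reported.

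Leaving out each library in turn gave 6927 to 7668 regions 2-fold higher and 1934 to 5765 lower, 5605 to 9789 higher and 2207 to 7579 lower by limma, SOX17 differences of 0.55 to 0.69, correlations of 0.800 to 0.858, GATA6 motif differences of -0.24 to -0.078, SOX17 motif differences of 0.14 to 0.23, and 0.45 to 0.76 and 0.40 to 0.69 for facultative heterochromatin and naive regions over active enhancers. The lone library left in a day was then assumed to vary like the other day's pair. The highest count of losses came without library B of day 4 and the lowest 2-fold count of losses without library A of day 4. No paired analysis was possible because the recovered libraries carry no replicate number. Depth limits calls at weak regions, where a value rests on a few reads.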
